A study of Mus musculus with 8 samples.

Results

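The enzymes described here are the phase I and phase II families that handle foreign compounds: the cytochromes P450 (Cyp), UDP-glucuronosyltransferases (Ugt), cytosolic and microsomal glutathione S-transferases (Gst of the classes alpha, kappa, mu, omega, pi and theta, and Mgst), sulfotransferases (Sult), carboxylesterases (Ces), alcohol dehydrogenases (Adh) and aldehyde dehydrogenases (Aldh). They were taken from the table of 23951 genes by symbol, without Cyp51 and Cyp26b1, and a gene was a member where its FPKM (fragments per kilobase of transcript, scaled to the size of the library) reached 1 or more in no fewer than 2 of the 8 libraries. Of 209 symbols of these families, 93 were members, 81 were above 0 but below that limit and 35 were listed at 0 in all 8 libraries. The members were 29 of 102 Cyp, 10 of 21 Ugt, 18 of 20 Gst, 3 of 3 Mgst, 5 of 18 Sult, 8 of 19 Ces, 4 of 6 Adh and 16 of 20 Aldh genes. Just inside the limit were Ces2b, Aldh1a3 and Cyp2r1, with second highest FPKM of 1.06, 1.03 and 1.01, and just outside were Cyp2c66, Cyp2c44 and Cyp4f41-ps, with 0.967, 0.918 and 0.892.

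RNA was taken from crypts of the mouse jejunum, separated from the mesenchyme in 3 mM EDTA and passed through a 70 micron filter. All mice carried a conditional BRAF-V600E f/+ allele, which encodes an activated kinase at the head of the MAPK cascade. All also carried Villin-CreER(T2), whose promoter limits the tamoxifen-dependent Cre to the intestinal epithelium, and all were given tamoxifen on 4 consecutive days and examined 1 day later. The group BRAF had this genotype (3 libraries), SMAD4KO_BRAF was also Smad4 f/f (3 libraries), and CDX2KO_BRAF was also Cdx2 f/f (2 libraries). The ages of the mice are not given in the sources used here, nor is it stated that the libraries of a group came from separate mice, so the p-values speak only of how these libraries vary, which may be technical. The FPKM of Smad4 were 42.5, 47.0 and 42.4 in BRAF, but 10.7, 8.38 and 7.66 in SMAD4KO_BRAF. Cdx2 FPKM went against the label of its group: they were 64.2, 82.6 and 80.1 in BRAF and 155.1 and 121.2 in the libraries labelled CDX2KO_BRAF, where whole-gene FPKM does not separate the floxed part of the gene from the rest. Every direction given below for that group is therefore one of the libraries labelled CDX2KO_BRAF, and libraries carry the number of their column, 0 to 2.

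Phase I enzymes expose or add a reactive group. Cytochromes P450 oxidize drugs, steroids and fatty acids in the endoplasmic reticulum with electrons from P450 reductase, alcohol and aldehyde dehydrogenases carry alcohols through aldehydes to acids, and carboxylesterases split esters and amides. Phase II enzymes join the product to glucuronic acid, glutathione or sulfate, after which exporters in the membrane can remove it. In the small intestine these enzymes belong mostly to absorptive enterocytes, form a barrier against compounds of the diet and also act on the body's own bilirubin, steroids, retinoids and lipids.

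Summed FPKM ranged from 431269 to 595547 over the libraries, with 10924 to 11570 genes at 1 or above. Read counts are not in the table, which leaves no basis for counting intervals. Steps between the lowest FPKM give each library a depth of 0.712 to 1.44 times that of BRAF library 0. By Y-linked genes library 0 of BRAF and library 0 of SMAD4KO_BRAF came from males and the remaining 6 from females. Crypt markers were present in all 8 libraries: 5 of 5 stem cell and 6 of 6 Paneth cell markers passed the same FPKM limit. Mature enterocyte markers, 11 of 11 passing, summed to 13337 to 29250 in BRAF, 6668 to 20259 in SMAD4KO_BRAF and 3588 to 8442 in the libraries labelled CDX2KO_BRAF.

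Promoters are shown for 5 of the members whose change between BRAF and the libraries labelled CDX2KO_BRAF passed the test described below and whose upstream sequence holds a short motif of an intestinal or liver factor. The sequences are the 250 bases before the transcription start in RefSeq's table for GRCm38.p6, written 5′ to 3′ on the gene's strand, and capitals mark the matches to CDX, HNF1 and HNF4 motifs. Adh6a (chr3:138313036-138313285, plus strand) and Cyp4f40 (chr17:32658636-32658885, plus strand, the first of its 2 listed starts) hold a CDX motif, TTTATGG or TTTATTG on either strand. Cyp4f40 also holds an HNF1 element, as do Ugt1a1 (chr1:88211709-88211958, plus strand) and Sult1d1 (chr5:87569007-87569256, minus strand), and Cyp2c65 (chr19:39060756-39061005, plus strand) holds an HNF4 element, CAAAGTCCA.
Adh6a: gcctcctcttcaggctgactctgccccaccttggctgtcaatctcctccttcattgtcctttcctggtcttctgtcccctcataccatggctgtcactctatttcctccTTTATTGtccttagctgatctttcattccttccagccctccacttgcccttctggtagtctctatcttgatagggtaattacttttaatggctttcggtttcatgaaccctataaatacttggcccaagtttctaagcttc
Cyp4f40: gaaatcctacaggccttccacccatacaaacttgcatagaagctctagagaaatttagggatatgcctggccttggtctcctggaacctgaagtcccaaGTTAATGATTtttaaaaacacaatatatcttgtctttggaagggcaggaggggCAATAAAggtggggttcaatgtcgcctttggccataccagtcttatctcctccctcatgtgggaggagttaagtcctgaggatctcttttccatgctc
Ugt1a1: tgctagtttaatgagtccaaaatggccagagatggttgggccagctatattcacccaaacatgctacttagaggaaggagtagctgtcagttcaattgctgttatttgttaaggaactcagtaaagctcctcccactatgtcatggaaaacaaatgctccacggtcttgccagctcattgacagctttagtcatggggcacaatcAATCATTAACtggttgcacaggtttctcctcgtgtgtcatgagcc
Sult1d1: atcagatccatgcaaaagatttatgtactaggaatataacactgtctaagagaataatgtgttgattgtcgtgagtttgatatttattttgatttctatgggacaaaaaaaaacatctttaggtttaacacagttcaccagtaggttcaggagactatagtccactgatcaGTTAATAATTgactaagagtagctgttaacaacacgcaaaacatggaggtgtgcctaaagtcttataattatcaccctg
Cyp2c65: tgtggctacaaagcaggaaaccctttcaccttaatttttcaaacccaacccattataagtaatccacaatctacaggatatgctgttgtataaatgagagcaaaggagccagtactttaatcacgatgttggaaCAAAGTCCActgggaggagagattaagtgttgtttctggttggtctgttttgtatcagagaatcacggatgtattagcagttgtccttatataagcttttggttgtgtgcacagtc

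The motifs were searched on both strands, and the 2 CDX words were counted together. Promoters were found for 78 of the 93 members. The CDX motif was in 7 of these 78 promoters, or 8.97%, and in 7.46% of the 26794 genes with a promoter of the same length. It was in 3 of 26 promoters of members that fell and 0 of 11 of members that rose in the libraries labelled CDX2KO_BRAF. Among members not called there it was in 4 of 41, or 9.76%, beside 11.5% of those that fell. The HNF1 element was in 4 of 78 (5.13%, against 0.444% of all genes), in Ugt1a9, Ugt1a1, Sult1d1 and Cyp4f40, and the HNF4 element in 3 of 78 (3.85%, against 0.455%), in Cyp3a11, Cyp2c65 and Cyp2c68. The core of the aryl hydrocarbon receptor site, TNGCGTG, was in 7.69% of member promoters and 4.78% of all, and the NRF2 element, TGACNNNGC, in 8.97% and 11.6%. A match describes these letters only and shows no binding.

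In BRAF crypts the members together summed to an FPKM of 7324 ± 954 (SD, n = 3), or 1.36 to 1.42% of the library's FPKM. The glutathione S-transferases held the most, with 1662 ± 399 for the cytosolic and 1601 ± 134 for the microsomal enzymes, ahead of the P450s with 1289.7 ± 396 and the aldehyde dehydrogenases with 879 ± 90.0. Carboxylesterases summed to 699 ± 91.0, alcohol dehydrogenases to 470.2 ± 67.3, glucuronosyltransferases to 462 ± 51.8 and sulfotransferases to 262 ± 31.5. The most abundant single enzymes over the 8 libraries were Cyp3a13 and Cyp4f14, Ugt2b34 and Ugt1a7c, Gsto1 and Gsta4, Mgst3 and Mgst1, Sult1d1 and Sult2b1, Ces2e and Ces2a, Adh1 and Adh6a, and Aldh1b1 and Aldh9a1. All pairs are given in the order of their families above. In SMAD4KO_BRAF the sums were 752 ± 330.5 for Cyp, 312 ± 61.8 for Ugt, 1189 ± 229 for Gst, 141 ± 35.1 for Sult, 369 ± 33.2 for Adh, 728 ± 155 for Aldh, 1550.3 ± 453 for Mgst and 790.4 ± 394 for Ces (SD, n = 3). Of the 8 families Ces alone had a higher mean sum there than in BRAF, with a range of 499.5 to 1239. In the libraries labelled CDX2KO_BRAF they were 759 ± 72.1 for Cyp, 333 ± 24.3 for Ugt, 3197 ± 1202 for Gst, 354 ± 15.5 for Sult, 267 ± 23.9 for Ces, 217 ± 2.31 for Adh, 529 ± 61.2 for Aldh and 1495 ± 172 for Mgst (SD, n = 2). Gst and Sult were thus the only families of the 8 whose sum was highest in the libraries labelled CDX2KO_BRAF. For Gst the libraries differed widely, at 2348 and 4047. The Sult sums there, 343 and 365, included 114 and 156 from Sult1c2, which reached an FPKM of 1 only in this group. Sult1c2 is thus a member only through these libraries, and without it the Sult sum would not be highest there.

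**Figure D1:**
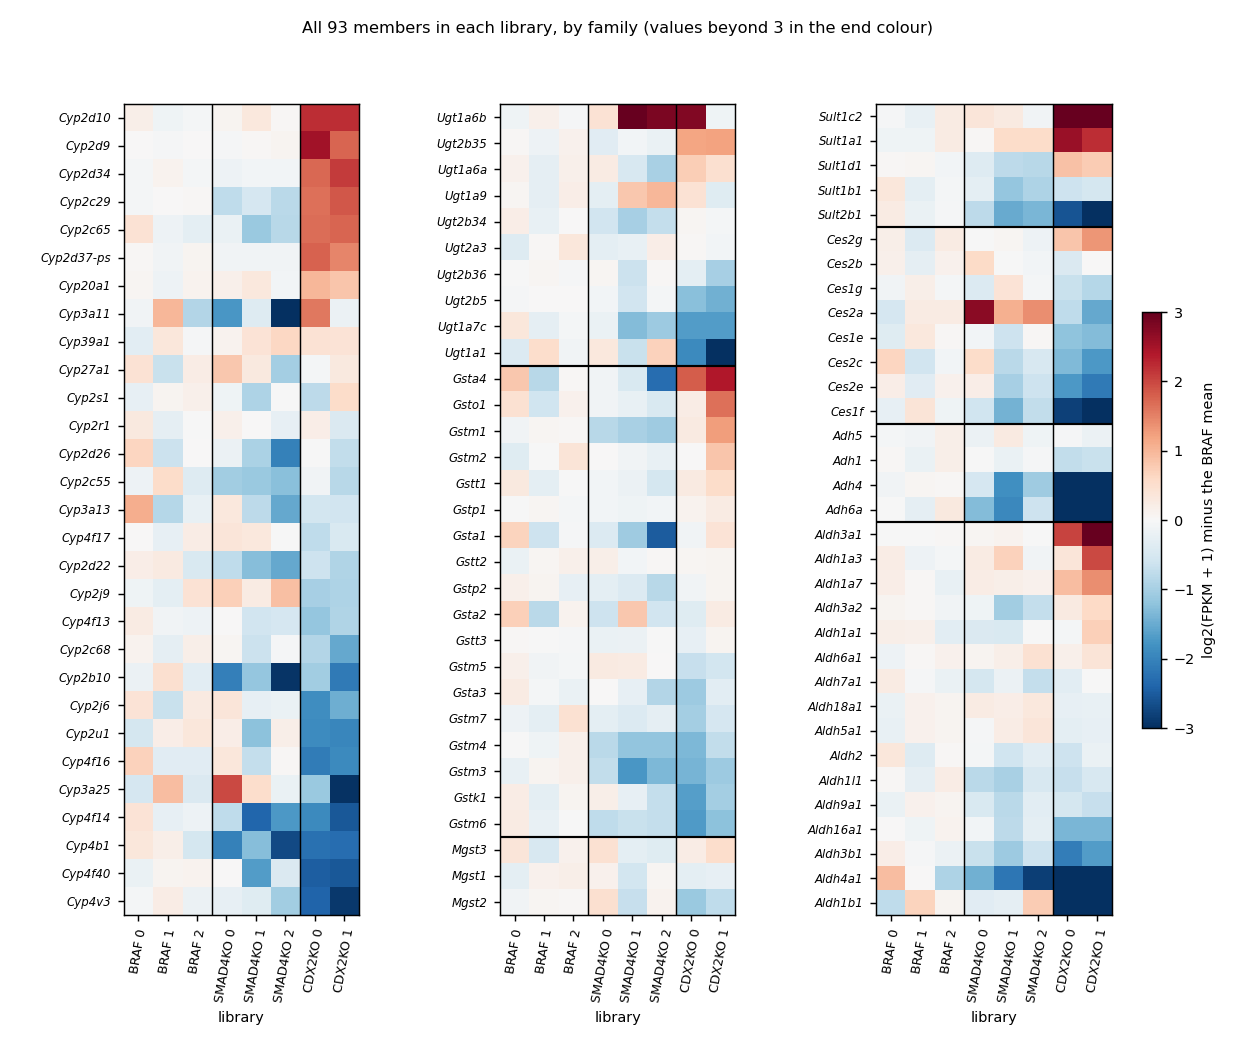
Each row is 1 of the 93 members, each column 1 library, and the colour is log2(FPKM + 1) minus the mean of the 3 BRAF libraries, with black lines between families and between groups. Within each family the members are ordered by their difference between CDX2KO_BRAF and BRAF, and the last 2 columns of each block hold strong colours of both signs.

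Expression was compared as log2(FPKM + 1) with limma over all 12084 genes that passed the same FPKM limit, and a member is called where its p, adjusted by Benjamini-Hochberg over these genes, is under 0.05. Differences are on this scale, ± their standard error, and understate the change of genes at low FPKM. Both comparisons with BRAF use the same BRAF libraries.

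The comparison of CDX2KO_BRAF with BRAF asks what the Cdx2 f/f genotype adds to activated Braf; Cdx2 encodes a homeodomain factor of intestinal identity. In the libraries labelled CDX2KO_BRAF 42 of 93 members were called, or 45.2%, where 14.1% of all tested genes were. Of these, 14 rose and 28 fell, and over all tested genes 6.89% rose and 7.21% fell. The median difference of the members was −0.37 and that of all tested genes 0.02. Of the 14 that rose, 8 reached an FPKM of 1 only in this group and had to differ from BRAF: Cyp2c29, Cyp2d9, Cyp2d10, Cyp2d34, Cyp2d37-ps, Sult1a1, Sult1c2 and Aldh3a1. Without them 34 of 85 members were called (40%), of which 6 rose and 28 fell. Among the 50 members with a mean FPKM of at least 20 over the groups, 22 were called. Both subsets were chosen after seeing the data. The count rests on a pair of libraries: 24 members were called without CDX2KO_BRAF library 0 and 18 without CDX2KO_BRAF library 1. The calls of 17 members held with each of the 8 libraries left out in turn, namely Adh4, Adh6a, Aldh1b1, Aldh3a1, Aldh3b1, Ces1f, Cyp2c29, Cyp2d9, Cyp2d10, Cyp2d34, Cyp2d37-ps, Cyp4v3, Gstm6, Sult1a1, Sult1c2, Sult2b1 and Ugt2b35. These 17 include all 8 that the FPKM limit admitted only through the CDX2KO_BRAF libraries, so the direction of those 8 was fixed in advance. Both libraries are female, and with sex as a term 42 members were called (14.9% of all tested genes), 40 of them also called without it.

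**Figure D2:**
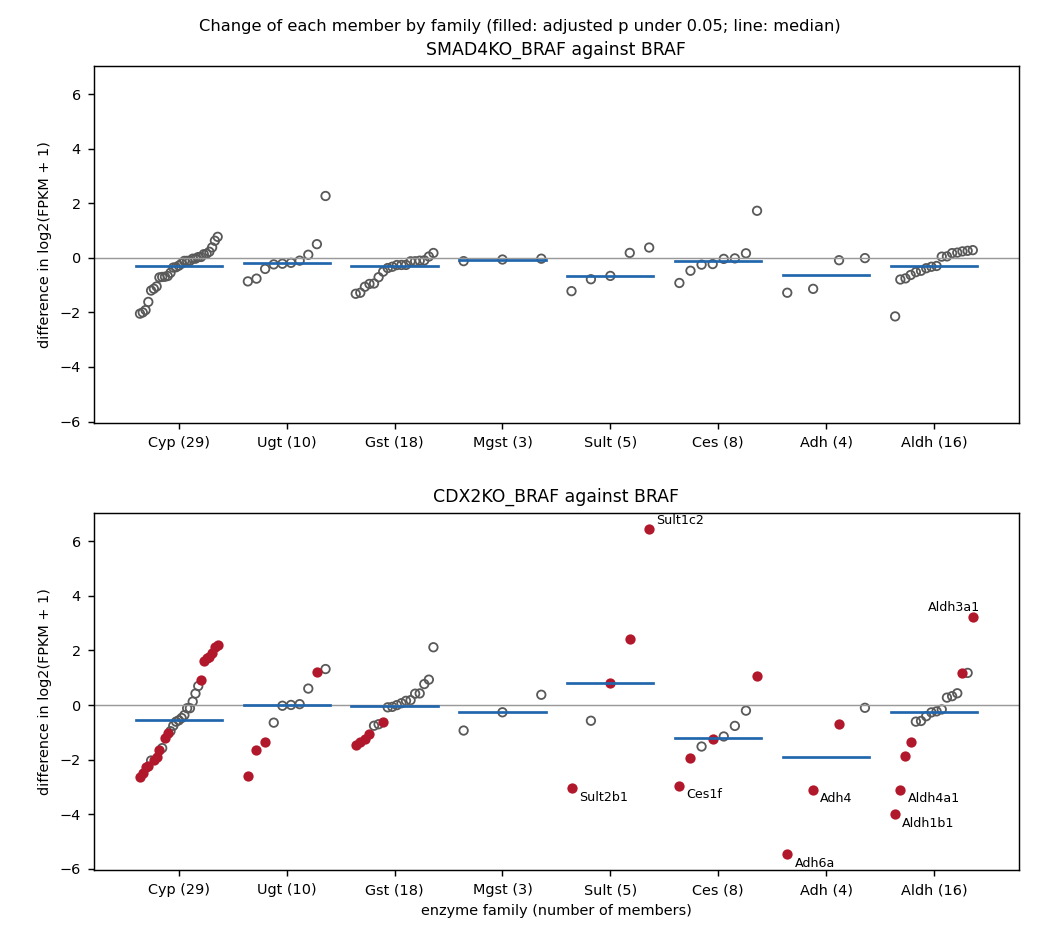
Each point is 1 member, placed by its difference in log2(FPKM + 1) between SMAD4KO_BRAF and BRAF (top) or CDX2KO_BRAF and BRAF (bottom), with the families and their numbers of members along the axis. Filled points passed an adjusted p of 0.05 and the blue line is the family's median, which for CDX2KO_BRAF is 0.82 in Sult and −1.91 in Adh. The Sult median is raised by Sult1a1 and Sult1c2, which reached an FPKM of 1 only in CDX2KO_BRAF and so had to lie above 0. Of the remaining Sult members Sult1d1 lies above 0, and Sult1b1 and Sult2b1 lie below.

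Markers of several other cell types moved with this comparison, in which 14.1% of all tested genes were called. Of 7 gastric markers 4 passed the FPKM limit and all 4 rose, and the list summed to 0.448 to 10.3 in BRAF, 0.151 to 2.62 in SMAD4KO_BRAF, and 2396 and 8093 in the libraries labelled CDX2KO_BRAF, with Tff1 listed at 0 in all 8 libraries and Gkn1 at 391 and 1955 in the latter. Of 11 mature enterocyte markers 6 fell, with a median difference of −2.61, and 4 of 4 tested tuft cell markers rose, from sums of 3.56 to 6.04 in BRAF to 34.1 and 78.8. Of 6 Paneth cell markers 2 fell, with a median difference of −1.56 and sums of 8889 to 17856 in BRAF and of 6822 and 5195 in the libraries labelled CDX2KO_BRAF. Of 5 enteroendocrine markers, all with negative differences, 1 fell, and their sums went from 63.0 to 82.8 to 32.1 and 24.0. Of 5 hepatocyte markers only Ttr was tested and it rose, to 117.1 and 42.7, while Alb was at most 0.130 in any library and Serpina1a was listed at 0 in all 8. Pancreatic acinar markers summed to at most 0.405 in any library. Of 6 goblet cell markers, 2 with positive and 4 with negative differences, 0 were called, and of 5 stem cell markers, 3 positive and 2 negative, also 0. Of 4 tested myeloid markers 1 rose, and the other differences were negative. T cell markers summed to 21.2 to 578 in BRAF and to 6.80 and 39.0 in the libraries labelled CDX2KO_BRAF, with 0 of 6 called, and mesenchymal markers to 5.61 to 70.1 and to 2.15 and 8.82, with 0 of 4 called. The part of these markers in the members' differences was not tested. In such bulk samples fewer cells of a type and less RNA per cell cannot be told apart.

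Among the P450s 7 of 29 rose and 9 fell, beside 6.89% and 7.21% of all tested genes. Of those that rose, Cyp2c29, Cyp2d9, Cyp2d10, Cyp2d34 and Cyp2d37-ps were admitted by the FPKM limit through the libraries labelled CDX2KO_BRAF alone. The Cyp4 enzymes, which hydroxylate fatty acids and leukotrienes at the end of the chain, had negative differences in all 7 members, and 6 of the 7 fell. Cyp4f14, the second most abundant P450, was at 506, 322.5 and 346 in BRAF and 101 and 65.1 in the libraries labelled CDX2KO_BRAF, and fell by 2.23 ± 0.46 (adjusted p = 0.0217). Cyp4v3 was at 49.7, 60.3 and 45.6 and then at 8.94 and 6.02 (−2.65 ± 0.27, adjusted p = 0.00159). Cyp4f40, whose promoter is printed above, was at 37.4, 45.5 and 46.5 and then at 6.93 and 6.56 (−2.51 ± 0.44, adjusted p = 0.0115). For these 3 genes no library of one group reached the range of the other, as for 22.7% of all tested genes in this direction. Cyp4b1, which also oxidizes foreign compounds, went from 26.9 to 49.3 to 7.15 and 7.52 (−2.26 ± 0.41, adjusted p = 0.0138), Cyp4f16 fell by 2.01 and Cyp4f13 by 1.03. Cyp4f17 had a difference of −0.61 and was not called. Of these calls only that of Cyp4v3 held without each library in turn: those of Cyp4b1, Cyp4f13, Cyp4f14, Cyp4f16 and Cyp4f40 were lost without CDX2KO_BRAF library 0 and without CDX2KO_BRAF library 1, and those of Cyp4f13 and Cyp4f14 without BRAF library 0 and of Cyp4f14 without BRAF library 2, with adjusted p over the lost Cyp calls of 0.0508 to 0.189.

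The Cyp2 enzymes, the subfamily with most of the drug-oxidizing P450s, moved both ways, with 6 of 16 rising and 3 falling. Over all tested genes 6.89% rose and 7.21% fell. Cyp2c65, an intestinal P450 that acts on arachidonic acid, was at 74.3, 49.1 and 44.6 in BRAF, against 176 and 187 in the libraries labelled CDX2KO_BRAF, a rise of 1.71 ± 0.31 (adjusted p = 0.0128) on a 3.24-fold higher mean. Its share of the family's FPKM was 4.08 to 4.76% in BRAF and 21.7 and 26.4% there, beside which the share of Cyp4f14 went from 29.0 to 31.6% to 12.5 and 9.20%. Cyp2c29 was at 0.699, 0.780 and 0.803 in BRAF, against 4.55 and 5.41 (1.76 ± 0.17, adjusted p = 0.0014). Cyp2c29 and the next 4 genes are among the 8 that the FPKM limit admitted through this group alone. The Cyp2d genes of 2 groups of neighbours rose from near 0: Cyp2d10 from at most 0.242 to 4.04 and 4.09, Cyp2d9 from at most 0.0340 to 4.85 and 2.42, Cyp2d34 from at most 0.191 to 2.67 and 3.78, and the pseudogene Cyp2d37-ps from at most 0.143 to 2.71 and 2.0. Their differences were 2.21, 2.13, 1.92 and 1.63, with adjusted p of 0.000934, 0.00263, 0.00145 and 0.00257. The Cyp2d genes are near copies, and 35.8% of the 50-base stretches of Cyp2d10 and 21.8% of those of Cyp2d9 also occur in another gene, so how the reads were divided among them is uncertain. The most abundant Cyp2d gene, Cyp2d26, was at 49.6 to 123 in BRAF and 78.2 and 46.5 in the libraries labelled CDX2KO_BRAF, which overlap.

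Cyp2j6, of the arachidonic acid epoxygenases, fell from 77.4, 36.4 and 70.7 to 15.4 and 20.7 (−1.66 ± 0.35, adjusted p = 0.0224). Cyp2u1, which hydroxylates fatty acids, fell from 1.81, 3.66 and 4.14 to 0.104 and 0.0477 (−1.92 ± 0.47, adjusted p = 0.0377), and Cyp2c68 by 1.21. Cyp20a1, a P450 with no settled substrate, rose from 10.1 to 12.3 to 23.6 and 21.2 (0.92 ± 0.15, adjusted p = 0.00869). The calls of Cyp2c65, Cyp20a1, Cyp2c68, Cyp2j6 and Cyp2u1 were lost without CDX2KO_BRAF library 0 and without CDX2KO_BRAF library 1, those of Cyp2c68 and Cyp2j6 without BRAF library 0, that of Cyp2u1 without BRAF library 1, and those of Cyp2c68, Cyp2j6 and Cyp2u1 without BRAF library 2, at adjusted p of 0.0508 to 0.189. None of the 3 Cyp3a enzymes, the main drug P450s of the intestine, was called. Cyp3a13 was the most abundant P450, at 568, 148 and 229 in BRAF, 333, 155 and 91.8 in SMAD4KO_BRAF, and 184 and 179 in the libraries labelled CDX2KO_BRAF. Cyp3a11 ranged from 17.6 to 66.8 in BRAF and was at 101 and 29.1 in the latter. For both genes the groups overlap. Cyp3a25 lay lower, at 13.7, 38.8 and 14.4 in BRAF and 8.63 and 1.68 in the libraries labelled CDX2KO_BRAF, a difference of −2.03. Its groups did not overlap, as for 22.7% of all tested genes in this direction, and 26.8% of its stretches occur in another gene.

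The alcohol dehydrogenases lay together in the genome, 4 members in 1 run of neighbours. Of the 4 members 3 fell, beside 7.21% of all tested genes. Adh6a, of a class with little known of its substrates, was at 139, 115 and 171 in BRAF, against 2.08 and 2.29 in the libraries labelled CDX2KO_BRAF, a 64.9-fold lower mean (−5.47 ± 0.35, adjusted p = 0.000378). It held 28.5 to 31.7% of the family's FPKM in BRAF and 0.966 and 1.05% there, and its promoter is the first of those printed above. Adh4, which oxidizes retinol and larger alcohols, was at 7.05, 8.01 and 7.85 in BRAF and is listed at 0 in both libraries labelled CDX2KO_BRAF (−3.11 ± 0.34, adjusted p = 0.00216). Adh1, the classical ethanol and retinol dehydrogenase and the family's most abundant member, fell from 265, 225 and 292 to 154 and 163 (−0.70 ± 0.15, adjusted p = 0.0252), a call lost without BRAF library 0 or 2 or CDX2KO_BRAF library 0 or 1, at adjusted p of 0.0657, 0.0727, 0.143 and 0.116. Adh5, which removes formaldehyde joined to glutathione, was at 57.4, 55.4 and 67.9 and at 58.8 and 53.0, and was not called.

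Of the 16 aldehyde dehydrogenases 2 rose and 4 fell, beside 6.89% and 7.21% of all tested genes. Of the 2 that rose, Aldh3a1 is among the members that the FPKM limit admitted through the libraries labelled CDX2KO_BRAF alone. Aldh1b1, a mitochondrial acetaldehyde dehydrogenase known from progenitor cells of the gut, was at 138, 372 and 248 in BRAF, against 22.8 and 8.18 in the libraries labelled CDX2KO_BRAF, a 16.3-fold lower mean (−3.99 ± 0.57, adjusted p = 0.00543). Aldh4a1, of proline breakdown, was at 38.4, 20.05 and 9.95 and then at 1.33 and 1.54 (−3.10 ± 0.56, adjusted p = 0.0132), and 30.0% of its stretches occur in another gene. Aldh3b1 fell by 1.88 and Aldh16a1 by 1.37. Aldh3a1, which oxidizes aldehydes from lipids and is known from cornea and stomach, is listed at 0 in BRAF libraries 0 and 1 and was at 0.0478 in the other, against 3.16 and 21.1 (3.24 ± 0.60, adjusted p = 0.0141). Aldh1a7 rose from 5.58 to 7.77 to 13.6 and 19.1 (1.16 ± 0.18, adjusted p = 0.00722), while its neighbour Aldh1a1, a retinaldehyde dehydrogenase, was at 19.9 to 28.2 and at 24.1 and 41.4 and was not called. Aldh2, of ethanol breakdown, and Aldh9a1, of carnitine synthesis, had differences of −0.41 and −0.61 and were not called. Aldh4a1 lost its call without CDX2KO_BRAF library 0 (adjusted p = 0.0801), and Aldh4a1, Aldh16a1 and Aldh1a7 without CDX2KO_BRAF library 1 (adjusted p of 0.0518 to 0.0838).

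Of the 8 carboxylesterases 3 fell and 1 rose, beside 7.21% and 6.89% of all tested genes, and 7 had negative differences. Ces2e, the most abundant esterase of the crypts, was at 497, 339 and 473 in BRAF, against 130 and 97.4 in the libraries labelled CDX2KO_BRAF (−1.93 ± 0.36, adjusted p = 0.0145). Ces1f was at 43.7, 69.0 and 47.7 and then at 6.64 and 5.16 (−2.96 ± 0.29, adjusted p = 0.0014), and Ces1e fell by 1.26. Ces2g, a neighbour of Ces2e, rose from 42.1, 27.7 and 44.9 to 67.1 and 95.3 (1.08 ± 0.24, adjusted p = 0.0259), so that its share of the family's FPKM went from 4.66 to 6.05% to 23.6 and 38.1%. Ces1e, Ces2e and Ces2g lost their calls without CDX2KO_BRAF library 1, Ces1e and Ces2e without library 0 of that group, and Ces1e without BRAF library 2, at adjusted p of 0.058 to 0.163.

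Of the 10 glucuronosyltransferases 1 rose and 3 fell, beside 6.89% and 7.21% of all tested genes. Ugt1a1, the enzyme of bilirubin, was at 29.8, 58.0 and 37.3 in BRAF, against 9.89 and 3.27 in the libraries labelled CDX2KO_BRAF (−2.59 ± 0.53, adjusted p = 0.0201). Ugt1a7c was at 209, 137 and 157 and then at 51.2 in both (−1.67 ± 0.33, adjusted p = 0.0182). The Ugt1a genes share all exons but the first: 80.2% of the stretches of Ugt1a1 and 53.7% of those of Ugt1a7c also occur in another gene, so the division between them is uncertain. In the Ugt2b run Ugt2b35 rose from 15.9, 13.8 and 17.0 to 36.5 and 37.4 (1.2 ± 0.12, adjusted p = 0.00179) and Ugt2b5 fell from 2.26 to 2.41 to 0.421 and 0.229 (−1.35 ± 0.20, adjusted p = 0.00666). Ugt2b34, the most abundant of the family, was at 240, 179 and 212 and at 217 and 202 and was not called. Ugt1a1, Ugt1a7c and Ugt2b5 lost their calls without CDX2KO_BRAF library 1, Ugt1a7c without CDX2KO_BRAF library 0, Ugt1a1 and Ugt1a7c without BRAF library 2 and Ugt1a1 without BRAF library 1, at adjusted p of 0.0509 to 0.132.

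The glutathione S-transferases had the highest sum in the libraries labelled CDX2KO_BRAF, yet 0 of 18 cytosolic members rose and 5 fell by limma, with 2 positive and 6 negative differences at an unadjusted p under 0.05. Of all tested genes 28.8% had such a p here, 14.6% with a positive and 14.2% with a negative difference. Limma called 6.89% of all tested genes higher and 7.21% lower. The sum followed Gsta4 and Gsto1. Gsta4, which removes 4-hydroxynonenal from oxidized lipids, was at 535.5, 173 and 312 in BRAF, against 1091 and 1634 in the libraries labelled CDX2KO_BRAF, and its share of the family's FPKM was 13.7 to 25.9% and then 46.5 and 40.4%. Its groups did not overlap, as those of 25.7% of all tested genes did not in this direction, but the difference of 2.12 ± 0.71 missed the threshold (adjusted p = 0.096). Gsto1, which reduces dehydroascorbate and thiols, was at 635, 303 and 506 and at 535 and 1438 (0.93 ± 0.46, adjusted p = 0.235). The mu class lay in 1 run of 7 neighbours, of which 4 fell: Gstm6 by 1.47 ± 0.18 (from 25, 18 and 20.8 to 5.76 and 8.45, adjusted p = 0.00341), Gstm3 by 1.24, Gstm4 by 1.04 and Gstm5 by 0.62. Gstm1, the most abundant of the mu class, was at 92.7, 105 and 103 and at 122 and 240, and was not called (0.77 ± 0.26, adjusted p = 0.10). Gstk1, a transferase of mitochondria and peroxisomes, fell by 1.34. Of the 5 calls only that of Gstm6 held without each library in turn: Gstk1, Gstm3 and Gstm5 lost theirs without CDX2KO_BRAF library 1, the same 3 and Gstm4 without CDX2KO_BRAF library 0 or BRAF library 2, Gstk1 and Gstm5 without BRAF library 0, and Gstm3 without BRAF library 1, at adjusted p of 0.0571 to 0.182. The 3 theta and 2 pi transferases had differences between −0.09 and 0.42, and none was called.

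None of the 3 microsomal transferases, small membrane proteins that also take part in leukotriene synthesis, was called in any comparison. Mgst3 was at 833, 460.5 and 709 in BRAF, 897, 529.5 and 503 in SMAD4KO_BRAF, and 757 and 933 in the libraries labelled CDX2KO_BRAF. Mgst1 was at 429 to 602, 363 to 582, and 432 and 450.3 in the same groups. Mgst2 was lower in both libraries labelled CDX2KO_BRAF, at 184 and 233, than in BRAF, at 371 to 415, with a difference of −0.94 ± 0.33 (adjusted p = 0.107).

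Of the 5 sulfotransferases 3 rose and 1 fell, beside 6.89% and 7.21% of all tested genes. Of the 3 that rose, Sult1c2 and Sult1a1 are among the 8 members that the FPKM limit admitted through the libraries labelled CDX2KO_BRAF alone. Sult1c2, which sulfates phenols and is known from stomach and kidney, was at 0.504, 0.313 and 0.829 in BRAF, 0.989, 0.844 and 0.432 in SMAD4KO_BRAF, and 114 and 156 in the libraries labelled CDX2KO_BRAF. The difference from BRAF was 6.45 ± 0.23 (adjusted p = 1.74e-05), a 246-fold higher mean. Sult2b1, which sulfates cholesterol and steroids, went the other way, from 131.5, 96.9 and 108 to 17.8 and 8.89 (−3.04 ± 0.32, adjusted p = 0.00181). As a share of the family's FPKM Sult2b1 went from 40.7 to 44.2% in BRAF to 5.17 and 2.43%, and Sult1c2 from 0.132 to 0.332% to 33.1 and 42.8%. Sult1d1, which sulfates catecholamines, rose from 93, 94.2 and 85.9 to 168 and 156 (0.82 ± 0.16, adjusted p = 0.015), and Sult1a1, the phenol sulfotransferase, from 0.214 to 0.581 to 6.95 and 5.20 (2.40 ± 0.24, adjusted p = 0.00153). Sult1b1, of thyroid hormones, was at 46.4 to 72.4 and at 36.4 and 39.3 and was not called. The call of Sult1d1 was lost without CDX2KO_BRAF library 0 or 1 or BRAF library 2, at adjusted p of 0.0968, 0.0796 and 0.0528.

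**Figure D3:**
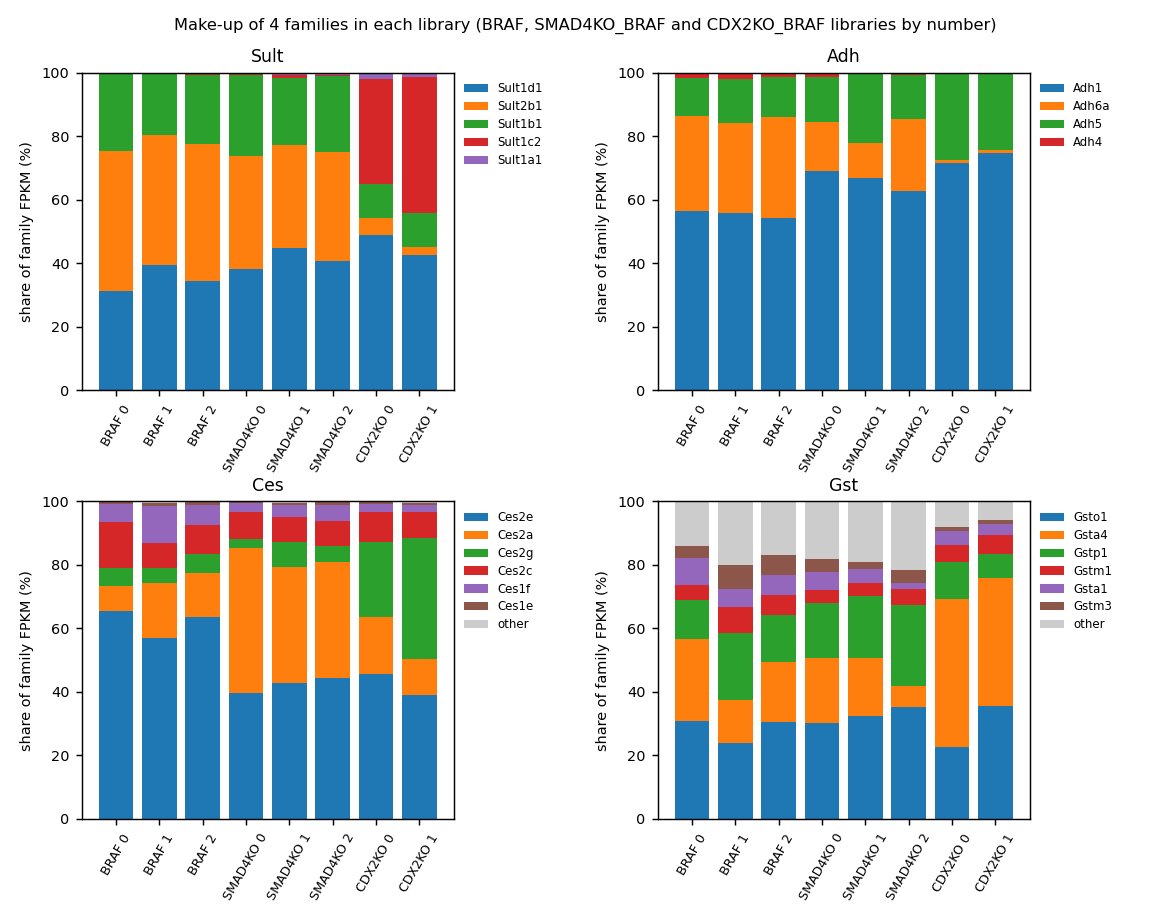
Bars give the share of each family's summed FPKM (percent) taken by its members in each of the 8 libraries, with SMAD4KO and CDX2KO standing for SMAD4KO_BRAF and CDX2KO_BRAF. Sult1c2 fills 33.1 and 42.8% of the Sult sum in the last 2 bars, Adh6a almost leaves the Adh sum, Ces2a takes 36.4 to 45.8% of the Ces sum in SMAD4KO_BRAF, and Gsta4 takes 46.5 and 40.4% of the Gst sum in CDX2KO_BRAF. Sult1c2 reached an FPKM of 1 only in CDX2KO_BRAF, so the FPKM limit fixed the direction of its share.

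Neighbouring members did not always share a direction. By their order in RefSeq's gene table for GRCm38.p6, 62 of the 93 members lay in 20 runs of adjacent genes of one family. Calls of both directions occurred in 3 runs, those of Cyp2c, Ugt2b and Ces2, and 5 runs held no call. Of the calls in these 3 runs only the rising ones of Cyp2c29 and Ugt2b35 held without each library in turn. Cyp2c29 was admitted by the FPKM limit through the libraries labelled CDX2KO_BRAF alone. The falling calls of the Cyp2c and Ugt2b runs are uncertain: 43.3% of the 50-base stretches of Cyp2c68 and 41.7% of those of Ugt2b5 also occur in another gene. The runs of Gstm, Adh and Cyp4f held calls in one direction, all lower, and those of Cyp2d only higher. Every called gene of the Cyp2d runs was admitted by the FPKM limit through the libraries labelled CDX2KO_BRAF alone, which fixed its direction in advance. Cyp2d22 and Cyp2d26, the other members of these runs, were not called. Cyp2d22 was lower in both libraries labelled CDX2KO_BRAF than in any BRAF library, and for Cyp2d26 the groups overlapped.

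The comparison of SMAD4KO_BRAF with BRAF asks what loss of Smad4, which carries signals of the TGF-beta and BMP receptors, adds to activated Braf. Limma called 0 of 93 members here, and 0.0745% of all tested genes. Differences were negative for 69 members and positive for 24, with a median of −0.25, where all tested genes had a median of −0.01. At an unadjusted p under 0.05 were 30 members, 27 of them negative. Of all tested genes 15.1% were, 9.05% in the negative direction. The groups did not overlap in 26 members that lay lower and 3 that lay higher, as for 10.4% and 8.99% of all tested genes. With weights for the libraries (limma's arrayWeights) 20 members fell and 1 rose, where 8.85% of all tested genes were called and 5.42% fell, and with sex as a term 1 member fell, where 0.645% were called. By library the median deviation of the members from the BRAF mean was −0.09, −0.41 and −0.27 in SMAD4KO_BRAF libraries 0 to 2. Mature enterocyte markers had negative differences in 11 of 11 genes, with a median of −1.33 and 0 called. Paneth cell markers had positive differences in 5 of 6 genes (median 0.78) and stem cell markers in 4 of 5 (median 0.42), with 0 called in either list. Among the latter Lgr5 was at 1.48, 2.35 and 1.26 in BRAF, with 5.19, 5.88 and 6.72 in SMAD4KO_BRAF. The part of these markers in the members' differences was not tested.

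The members with the smallest p were of the mu transferases, the P450s and the sulfotransferases. Gstm4 was at 18.2, 16.8 and 20.6 in BRAF, against 10.1, 7.59 and 7.54 in SMAD4KO_BRAF (−1.06 ± 0.19, adjusted p = 0.156). Cyp4b1 was at 49.3, 44.2 and 26.9 and at 8.86, 15.4 and 5.10 (−2.0 ± 0.37, adjusted p = 0.167). Gstm3 was at 79.1, 97.4 and 103 and at 54.9, 26.7 and 36 (−1.28 ± 0.25, adjusted p = 0.179), and Sult1d1 at 93, 94.2 and 85.9 and at 69.6, 52.7 and 50.7 (−0.66 ± 0.14, adjusted p = 0.179). In each of these 4 genes every SMAD4KO_BRAF library was below every BRAF library. With library weights all 4 were called, at adjusted p of 0.0279, 0.0384, 0.0279 and 0.0315, and over all alternatives the adjusted p of these genes ranged from 0.0279 to 0.464. Sult2b1 (−1.22), Cyp4f14 (−1.62), Cyp2b10 (−2.05), Gstm1 (−0.96), Gstm6 (−0.71), Ugt2b34 (−0.76), Aldh4a1 (−2.15), Aldh1l1 (−0.75) and Adh4 (−1.14) also had groups that did not overlap, and passed with library weights. Cyp2b10, a target of the receptor CAR, was at 10.2, 16.5 and 9.19 and at 2.06, 4.61 and 0.653, and Aldh4a1 was the member called with sex as a term (adjusted p = 0.0433).

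Ces2a went the other way. It was at 60.8, 103 and 103 in BRAF, against 567, 182 and 230 in SMAD4KO_BRAF, so that no library overlapped, with a difference of 1.72 ± 0.45 (adjusted p = 0.215, and 0.0494 with library weights). Its share of the Ces sum was 8.0 to 17.3% in BRAF and 36.4 to 45.8% in SMAD4KO_BRAF, where Ces2e was at 39.6 to 44.5% against 57.0 to 65.4%. SMAD4KO_BRAF library 0 held the highest value and BRAF library 0 the lowest BRAF value, and both are male. Only library 0 is male in either group, so sex and variation between libraries cannot be told apart here. Ugt1a6b was at 0.343 to 0.640 in BRAF, against 0.968, 16.1 and 9.36 in SMAD4KO_BRAF (2.27 ± 0.95, adjusted p = 0.324), and 79.8% of its stretches occur in another gene. Aldh18a1, which makes proline, also lay higher in all 3 libraries, by 0.26.

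**Figure D4:**
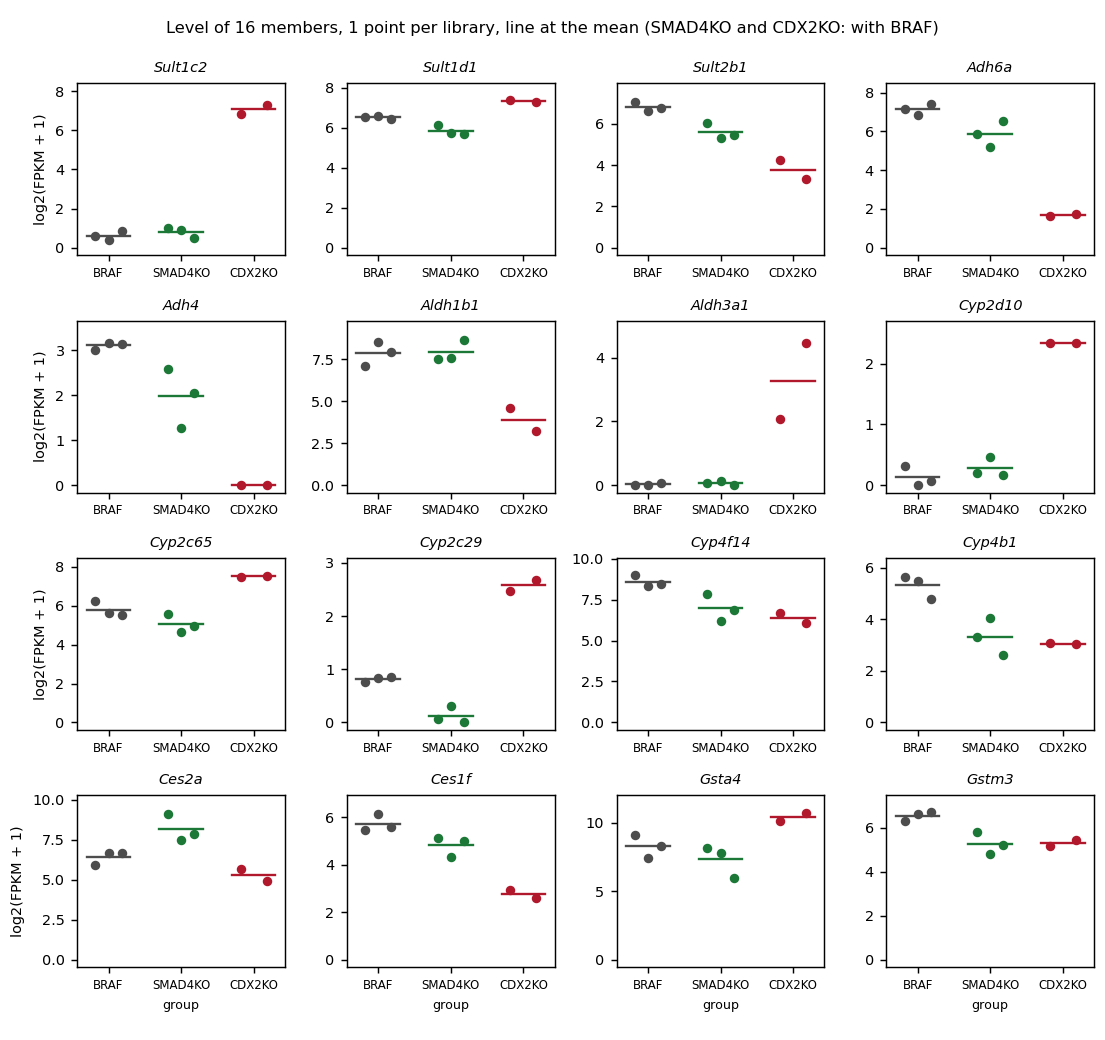
Each panel shows 1 of 16 members, with 1 point per library at log2(FPKM + 1), a line at the group mean, and the groups BRAF, SMAD4KO_BRAF and CDX2KO_BRAF from left to right. Points of CDX2KO_BRAF lie apart from the other 2 groups in Sult1c2, Adh6a, Aldh1b1 and Cyp2d10, while for Cyp4b1, Cyp4f14 and Gstm3 the points of the other 2 groups lie below those of BRAF. For Sult1c2 and Cyp2d10, which reached an FPKM of 1 only in CDX2KO_BRAF, the FPKM limit fixed this separation in advance.

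Set against each other, SMAD4KO_BRAF and the libraries labelled CDX2KO_BRAF differed in 39 of 93 members, 21 higher and 18 lower in SMAD4KO_BRAF, where 11.6% of all tested genes were called, 5.01% higher and 6.6% lower. Without the 8 members that reach an FPKM of 1 only in the libraries labelled CDX2KO_BRAF, 31 of 85 were called, 21 higher and 10 lower. The count was 22 without SMAD4KO_BRAF library 2, 19 without CDX2KO_BRAF library 0 and 14 without CDX2KO_BRAF library 1. Of the 28 members that fell in the libraries labelled CDX2KO_BRAF 18 were also higher in SMAD4KO_BRAF than there, and the 14 that rose were lower in SMAD4KO_BRAF. These comparisons share the CDX2KO_BRAF libraries, and for 8 of the 14 the FPKM limit itself fixed that direction. Another 4 were called lower and 3 higher in this comparison alone, and 44 members were called in none of the 3. The 7 are Gsta4, Gstm1, Ugt2b34 and Aldh3a2, lower in SMAD4KO_BRAF, and Ces2a, Cyp2j9 and Aldh18a1, higher. Gsta4 was at 287, 224 and 62.7 in SMAD4KO_BRAF against 1091 and 1634 (−3.06 ± 0.71, adjusted p = 0.0351), and Gstm1 at 55.8, 50.4 and 47.3 against 122 and 240 (−1.72 ± 0.26, adjusted p = 0.00886). Ces2a was at 182 to 567 against 50.4 and 29.0 (2.88 ± 0.51, adjusted p = 0.0142). Gstm1 kept its call without each library in turn. Gsta4 lost its call without BRAF library 2, SMAD4KO_BRAF library 1 or 2, or CDX2KO_BRAF library 0 or 1, at adjusted p of 0.0509 to 0.225 over the lost Gst calls, and Ces2a without CDX2KO_BRAF library 0 or 1, at adjusted p of 0.0508 to 0.21 over the lost Ces calls. Cyp2j9, Ugt2b34, Aldh3a2 and Aldh18a1 also lost their calls without CDX2KO_BRAF library 0 or 1. Ugt2b34 lost its call without BRAF library 2 or SMAD4KO_BRAF library 1 or 2 too, Aldh3a2 without every library but SMAD4KO_BRAF library 0, and Aldh18a1 without every library but BRAF library 0.

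The other genes of the pathway were taken from lists of known regulators, partners and exporters, and none of their tested members was called in SMAD4KO_BRAF against BRAF by limma. There 15 of 58 had an unadjusted p under 0.05, beside 15.1% of all tested genes. In the libraries labelled CDX2KO_BRAF, where 14.1% of all tested genes were called, 6.89% higher and 7.21% lower, 4 of 11 regulators fell and none rose. Nr1i3, which encodes the receptor CAR, was at 27.2, 31.9 and 29.9 in BRAF, against 3.76 and 2.29 (−2.95 ± 0.22, adjusted p = 0.000605). Hnf4g, a nuclear receptor of enterocytes, was at 110, 121 and 137 and then at 15.7 and 16.8 (−2.84 ± 0.18, adjusted p = 0.000359), its relative Hnf4a fell by 0.91 and Ppara, the receptor of fatty acids, by 1.21. Nr1i2, the receptor PXR, and Ahr, the aryl hydrocarbon receptor, had differences of 0.22 and 0.01 and were not called. Of 7 exporters 3 fell and 1 rose: Abcb1a, which encodes P-glycoprotein, went from 143, 132 and 96.1 to 6.45 and 3.26 (−4.45 ± 0.32, adjusted p = 0.000482), Abcc2 fell by 2.57 and Abcg2 by 1.19, and Abcc4 rose by 2.44. Of 6 electron donors Cyb5b fell by 0.96 and Cyb5r3 by 1.17, and Por, the reductase of the P450s, was at 144 to 264 and at 76.7 and 87.8 (−1.13 ± 0.40, adjusted p = 0.11). Of 8 genes of cosubstrate supply 1 fell, Papss1 of sulfate activation, by 0.83. Of 19 other enzymes of foreign compounds Fmo4, Fmo5 and Akr1c19 fell, by 1.85, 1.37 and 0.82, and Akr1c14 rose by 1.22. None of 7 NRF2 targets outside the families was called, and 4 had an unadjusted p under 0.05, as 28.8% of all tested genes did. Without CDX2KO_BRAF library 1 the calls of Ppara, Hnf4a, Abcg2, Abcc4, Cyb5b, Papss1, Fmo5 and Akr1c14 were lost, at adjusted p of 0.0761 to 0.22, and those of Ppara, Abcg2, Cyb5b, Papss1, Fmo5, Akr1c14 and Akr1c19 without CDX2KO_BRAF library 0, at 0.0521 to 0.158. Those of Ppara, Abcg2, Akr1c14, Akr1c19 and Fmo5 were also lost without at least 1 of the BRAF libraries, and that of Abcg2 without SMAD4KO_BRAF library 2, at adjusted p of 0.058 to 0.101.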

How the data were processed

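RNA-seq libraries of jejunal crypts (8, in 3 groups; total RNA, 50 bp reads) were read from 1 table of FPKM values as deposited by the authors, for which the tools named are TopHat2 2.1.0, Cuffdiff 2.2.1 and Cuffnorm 2.2.1 and the build mm9, per the submitters' processing notes. Columns are numbered from 0 and sample titles from 1, so columns were matched to groups only, and 3 further columns matched no sample and were not used. Without counts, depth is known only as a ratio between libraries, and a fold change of low genes is imprecise.

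Values were tested as log2(FPKM + 1) with limma 3.58.1 (R 4.3.3, mean-variance trend, all 3 groups in 1 fit, two-sided) over 12084 genes, those that reached FPKM 1 in 2 or more libraries. P-values were adjusted by Benjamini-Hochberg within each comparison, and the procedure was tested on simulated data. Means and shares are of FPKM. The table was read with Python 3.11.15, numpy 2.4.6 and pandas 2.3.3, and drawn with matplotlib 3.10.9. Shared sequence is the share of a gene's 50-base stretches also found in transcripts of another gene (GENCODE M21).

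The members and lists were chosen with earlier results of these data known. Members named were the 2 most abundant of each family, up to 10 called in each direction with the largest change, the 4 with the smallest p in each comparison and those at the FPKM limit; of each other list, up to 3 with the smallest p. Other names were chosen after their values were seen. Alternatives were a pseudocount of 0.1, other filters, rescaling, other fits, library weights, sex, a block on the column number and leaving out each library.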

Additional observations from a re-analysis of the deposited data

How the results depend on the processing

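Against BRAF, limma called 0 members in SMAD4KO_BRAF, 21 with library weights and 1 with sex as a term. For the libraries labelled CDX2KO_BRAF against BRAF, 42 members were called and 18 to 44 with each library left out in turn, and 34 to 51 under the other settings, the highest with library weights and the lowest with a minimum FPKM of 5, where 74 members were tested and all 34 calls made among them at the lower limit were kept. Between SMAD4KO_BRAF and the libraries labelled CDX2KO_BRAF, 39 were called, 14 to 36 with each library left out and 26 to 46 under the other settings. The cause of these differences was not tested, but leaving out a library also leaves fewer residual degrees of freedom, and a library of CDX2KO_BRAF left alone is assumed to vary like the other groups. Numbers of the columns do not pair the libraries: the correlation of deviations between same-numbered libraries was −0.109 to 0.241. With the column number as a replicate block 0, 35 and 27 members were called in the 3 comparisons. Of the members named for their change or their p in a comparison, none reversed its direction there under any of these settings. Those named for abundance or at the FPKM limit were not checked for this. The median over all tested genes was at most 0.0694 from 0 on the log2 scale under any setting, at −0.0694. In the comparisons with BRAF the family medians that changed sign in at least 1 setting were that of Mgst in SMAD4KO_BRAF (0.127 with quantile normalization) and those of Ugt (−0.255 to 0.077) and Gst (−0.176 to 0.080) in the libraries labelled CDX2KO_BRAF. The 2 libraries in that group limit every direction given for it.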
